A study of Homo sapiens with 20 samples.

Results

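A set of 6 genes linked to cell movement, LPAR1, MET, PTN, SMO, L1CAM and CCN2, was followed in the vertical growth phase melanoma cell line WM793 and in 4 lines made from it that overexpress NME1. They were chosen because each had been reported lower with NME1 in cells described as breast cancer cells. The rule itself uses no value from these arrays, but the set was picked with earlier results of these data known. All 6 had a single row of their own among the 18384 features (14411 of them genes with a single symbol), and no low-value filter was applied, so 6 of 6 were tested. The 4 overexpressing lines carry the wild-type construct (NME1-wild-type) or a construct with an amino acid change (NME1-E5A, NME1-K12Q, NME1-P96S), and the reference is the line they were made from (Parent). Every line was grown for 3 days in the same medium. There were 20 exon arrays, 4 for each of the 5 lines, and the design text calls the 4 technical replicates. Each construct is therefore represented by 1 line, and every p-value rests on the spread between arrays of a line. Whether a line is a clone or a pool, and which promoter drives the construct, is not given in the sources used here.

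NME1 is a nucleoside diphosphate kinase and the first gene described as a metastasis suppressor. Cells that carry more of it move and colonise less in many tumour models. A lower level of receptors and secreted factors that drive movement was one of the accounts given for this. LPAR1 is a receptor for lysophosphatidic acid that acts through G proteins, and in the breast cancer cell work its re-expression restored movement. MET is the receptor tyrosine kinase for hepatocyte growth factor, SMO is the transducer of hedgehog signals, L1CAM is an adhesion molecule of the immunoglobulin family, PTN (pleiotrophin) is a heparin-binding growth factor, and CCN2 (connective tissue growth factor) is a matrix-associated protein that YAP and TEAD factors switch on. P96S is the counterpart of the killer-of-prune change in the fruit fly gene.

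None of the 6 genes was lower in NME1-wild-type than in Parent beyond the spread between arrays. MET was the gene that differed among the lines: it was lowest in NME1-P96S and highest in NME1-E5A, 1.69-fold apart. That call depended on the processing and was lost with quantile normalization. MET averaged 5.18 over the 20 arrays, below every array median, and no detection call was used. LPAR1 ran the other way, highest in NME1-P96S, at differences that did not pass. PTN, SMO, L1CAM and CCN2 were not called in any of the 10 pairs of lines. A gene was called in a pair of lines at a limma adjusted p under 0.05, over all 18384 features, together with a fold of at least 1.5 (0.58 on the log2 scale).

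The 250 bases before the transcription start are shown for 2 of the genes, MET because it was the gene called and CCN2 because its window holds the site of the YAP and TEAD factors whose targets are counted further on. The sequences are from RefSeq on GRCh38.p14, read in the direction of the gene. Capitals mark GGGCGG (the GC box bound by SP factors) in MET, and GGAATG (the TEAD core) and TATAAA (the TATA box) in CCN2, each searched on both strands.
MET, chr7:116671946-116672195, plus strand: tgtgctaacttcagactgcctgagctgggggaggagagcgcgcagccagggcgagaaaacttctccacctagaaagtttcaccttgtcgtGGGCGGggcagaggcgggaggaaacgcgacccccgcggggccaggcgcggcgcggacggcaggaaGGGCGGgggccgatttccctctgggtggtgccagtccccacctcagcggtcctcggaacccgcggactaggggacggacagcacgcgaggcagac
CCN2, chr6:131951373-131951622, minus strand: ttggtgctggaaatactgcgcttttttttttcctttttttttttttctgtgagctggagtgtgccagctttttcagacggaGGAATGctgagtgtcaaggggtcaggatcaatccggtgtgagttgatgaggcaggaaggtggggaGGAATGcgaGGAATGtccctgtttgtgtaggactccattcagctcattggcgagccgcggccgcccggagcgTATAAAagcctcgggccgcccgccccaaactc
The MET window holds 2 GC boxes, which begin 160 and 95 bases before the start, and has no TATAAA. A GC box was found in 42.6% of the 35116 windows of this length. The CCN2 window holds 3 TEAD cores, beginning 169, 104 and 95 bases before the start, and 0.0826% of windows hold 3 or more while 11.9% hold at least 1. Its TATAAA begins 32 bases before the start, and 10.7% of windows hold that word. The CCN2 window also holds 3 GC boxes, read on the other strand and left in lower case. They begin 44, 17 and 13 bases before the start, and 13.9% of windows hold 3 or more. These matches describe the windows and are not measured binding.

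On the deposited log2 scale the array medians lay between 6.27 and 6.50, and the interquartile range of an array, a measure of its spread, between 2.19 and 3.16. The 3 lowest of these ranges were those of replicate 2 of Parent, replicate 3 of NME1-P96S and replicate 2 of NME1-K12Q. The row shared by NME1 and the NME1-NME2 readthrough differed from Parent by 0.28 in NME1-wild-type, 0.26 in NME1-E5A, 0.23 in NME1-K12Q and 0.25 in NME1-P96S, without passing (lowest limma adjusted p = 0.850). The 10 melanocyte markers measured by rows of their own averaged between 3.69 (MLANA) and 9.38 (SOX10), and the 9 epithelial markers between 3.61 (EPCAM) and 8.50 (ERBB3). None of the 36 marker genes of melanocytes, fibroblasts, leukocytes, endothelium and epithelium was called in a line against Parent. The shares of all features called in these comparisons were 0.00544% to 0.218%. Levels of different rows cannot be set against each other, and no detection call was used here, so no marker is called absent.

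**Figure D1:**
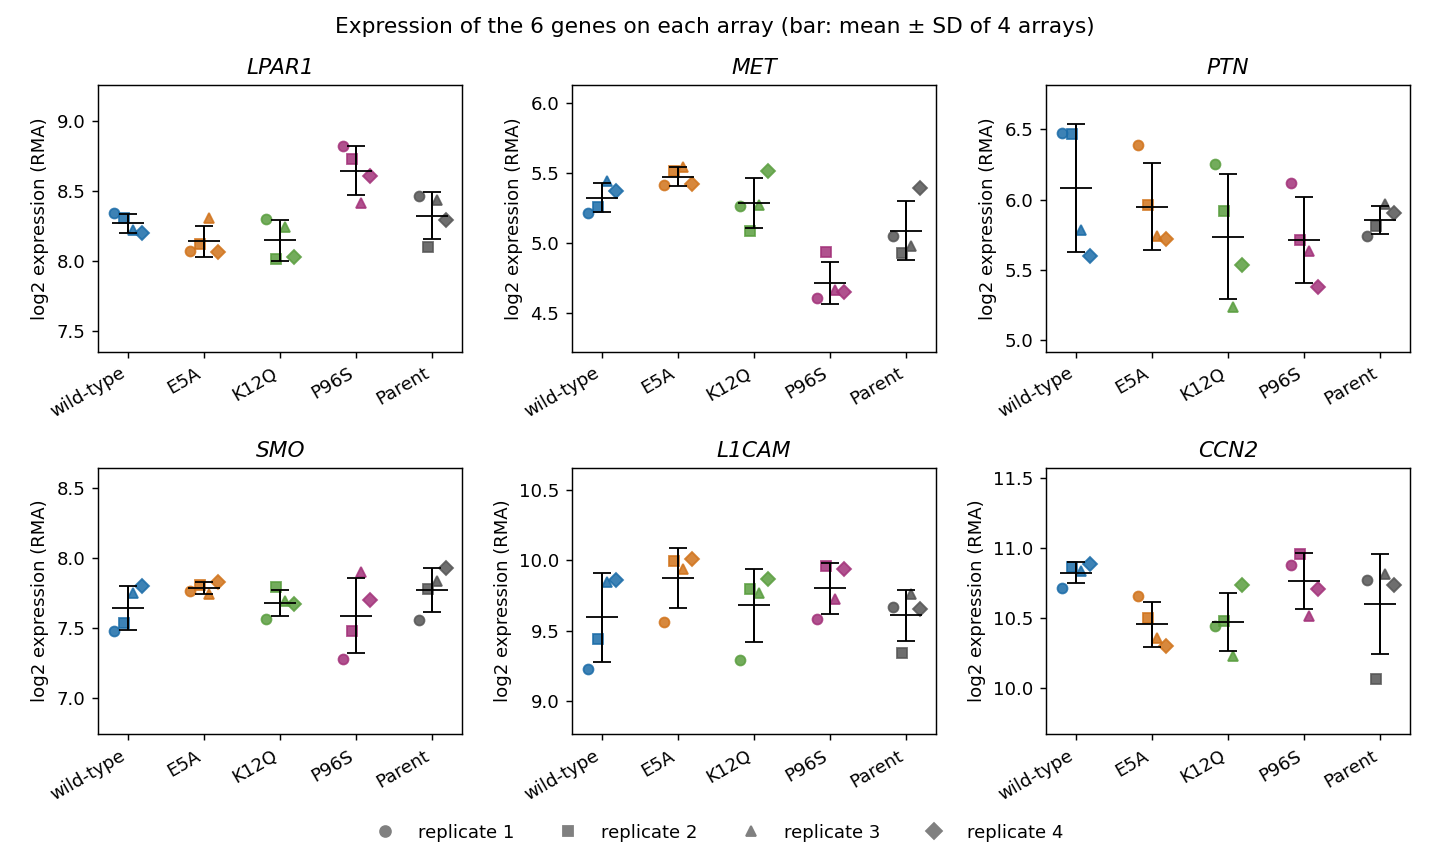
Log2 expression of each of the 6 genes on each of the 20 arrays, by line, with marker shapes for the replicate number and a bar for the mean ± SD of 4 arrays. All panels span the same range of log2 units. NME1-P96S has the lowest mean for MET and the highest for LPAR1, and the lines overlap for most other genes.

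With wild-type NME1, 0 of the 6 genes were called against Parent (limma), and 3 were above Parent and 3 below. Over all features 0.0326% were called in this comparison. At an unadjusted p under 0.05 there were 0 of the 6, beside 1.38% of all features. The median of the 6 differences was 0.11 on the log2 scale, against -0.03 for all features. MET (0.23), PTN (0.23) and CCN2 (0.23) lay above Parent, and SMO (-0.13), LPAR1 (-0.05) and L1CAM (-0.01) below. The 95% intervals of the 6 differences had lower ends from -0.40 for SMO to -0.02 for MET, and 0 of 6 reached a 1.5-fold fall. For 0 of the 6 genes did the 4 NME1-wild-type arrays lie wholly apart from the 4 Parent arrays, which held for 0.827% of all features. The same count was 0 in NME1-K12Q and 0 in NME1-P96S against Parent, beside 1.17% and 1.23% of features.

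The mutant constructs gave no called member against Parent either, with 0 of 6 in each of NME1-E5A, NME1-K12Q and NME1-P96S (limma). The shares of all features called were 0.218% in NME1-E5A, 0.00544% in NME1-K12Q and 0.103% in NME1-P96S. At an unadjusted p under 0.05 there was 1 member in NME1-E5A (MET), 0 in NME1-K12Q and 2 in NME1-P96S (MET and LPAR1), beside 2.98% of all features in NME1-E5A, 1.48% in NME1-K12Q and 3.14% in NME1-P96S. The medians over the 6 were 0.05 in NME1-E5A, -0.11 in NME1-K12Q and 0.01 in NME1-P96S, beside -0.04, -0.05 and -0.06 over all features. The 95% intervals reached a 1.5-fold fall for 0 of 6 members in NME1-E5A and 1 in NME1-K12Q (PTN, lower end -0.60). In NME1-P96S they did for 2 (MET, -0.63, and PTN, -0.62). These comparisons share the 4 Parent arrays, so their values are not independent of each other.

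**Figure D2:**
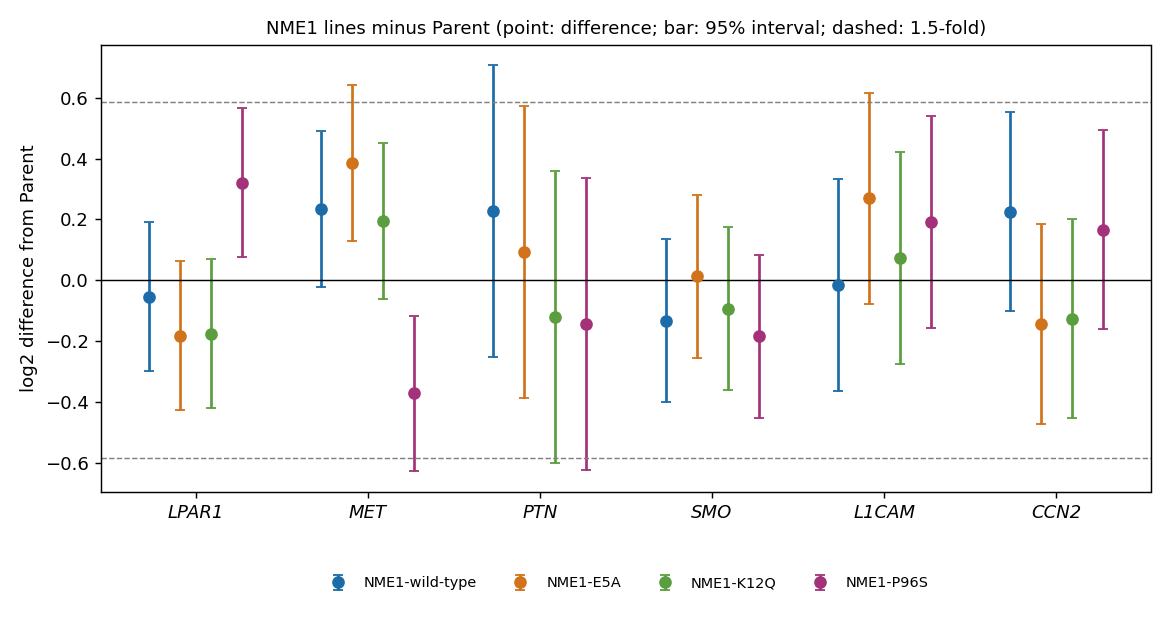
Difference of each NME1 line from Parent on the log2 scale (y axis) for the 6 genes (x axis), with 95% intervals from the limma fit and dashed lines at 1.5-fold. In NME1-wild-type no interval lies wholly below 0, while in NME1-P96S the MET interval does and the LPAR1 interval lies wholly above 0.

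MET, the receptor for hepatocyte growth factor (row 3020343), read 4.61, 4.94, 4.67 and 4.66 on the NME1-P96S arrays. It read 5.41, 5.52, 5.55 and 5.42 in NME1-E5A, 5.27, 5.08, 5.27 and 5.52 in NME1-K12Q, and 5.22, 5.26, 5.44 and 5.37 in NME1-wild-type. The Parent arrays read 5.05, 4.93, 4.98 and 5.40. All 4 NME1-P96S arrays thus lay below every array of the other 3 NME1 lines, and 3 of the 4 lay below the lowest Parent array. These are low values, below the array medians of 6.27 to 6.50.

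Over the 5 lines MET was the 1 of 6 members called by the moderated F test (limma adjusted p = 0.0172), where 0.582% of all features were called. Without NME1-E5A replicate 2, NME1-E5A replicate 3, NME1-P96S replicate 1 or NME1-P96S replicate 4 this call was lost (adjusted p up to 0.0854), and also with each array centred on its median (0.0832) and with quantile normalization (1.00). In NME1-P96S it averaged 4.72 ± 0.147 (SD, n = 4), against 5.32 ± 0.103 with the wild-type construct, which is -0.61 on the log2 scale (SE 0.122, limma adjusted p = 0.0428). The fall was 1.52-fold, and MET was the 1 member called in this comparison, where 0.201% of all features were called. Against NME1-E5A, at 5.48 ± 0.0667, the NME1-P96S level was lower by 0.76 on the log2 scale or 1.69-fold (limma adjusted p = 0.00468). MET was again the 1 member called, beside 0.239% of all features. Against NME1-K12Q, at 5.29 ± 0.177, the difference of -0.57 had an adjusted p of 0.0489 but at 1.48-fold fell short of the fold required, so 0 of 6 were called there, beside 0.277% of features. Without NME1-K12Q replicate 2 or NME1-P96S replicate 2 that comparison was called too.

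The lines differed less from Parent, at 5.09 ± 0.210. MET in NME1-P96S differed from Parent by -0.37 (interval -0.63 to -0.12, limma adjusted p = 0.850) and in NME1-E5A by 0.39 (interval 0.13 to 0.64, adjusted p = 0.632). The 4 NME1-E5A arrays all lay above the Parent arrays, as in 1.07% of all features, and MET was the 1 member of which this was true. In order from the highest mean the lines ran NME1-E5A, NME1-wild-type, NME1-K12Q, Parent and NME1-P96S, and no neighbouring pair in this order was called.

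The call against NME1-E5A held without any 1 of the 20 arrays, with adjusted p from 0.00169 to 0.0279, and was lost with quantile normalization (-0.67, adjusted p = 0.416) and when only the 8 arrays of these lines were fitted (adjusted p = 0.0838). The call against NME1-wild-type was lost without any 1 of 15 arrays, among them all 4 of NME1-wild-type and of NME1-E5A, Parent replicates 1 and 3, NME1-K12Q replicates 1 and 3, and NME1-P96S replicates 1, 3 and 4, at differences from -0.64 to -0.56. It was also lost with quantile normalization (adjusted p = 1.00), with arrays centred on their medians (0.184), with only the 8 arrays of these lines (0.552), with trend and robust moderation (0.107) and with treat, which tests against the fold itself (1.00) and ended the call against NME1-E5A too. Within lines MET moved with the spread of the array (r = 0.70 over 20 arrays after each line's mean was taken off), and with that spread as a covariate the differences of NME1-P96S were -0.65 from NME1-wild-type, -0.80 from NME1-E5A and -0.62 from NME1-K12Q, all called.

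**Figure D3:**
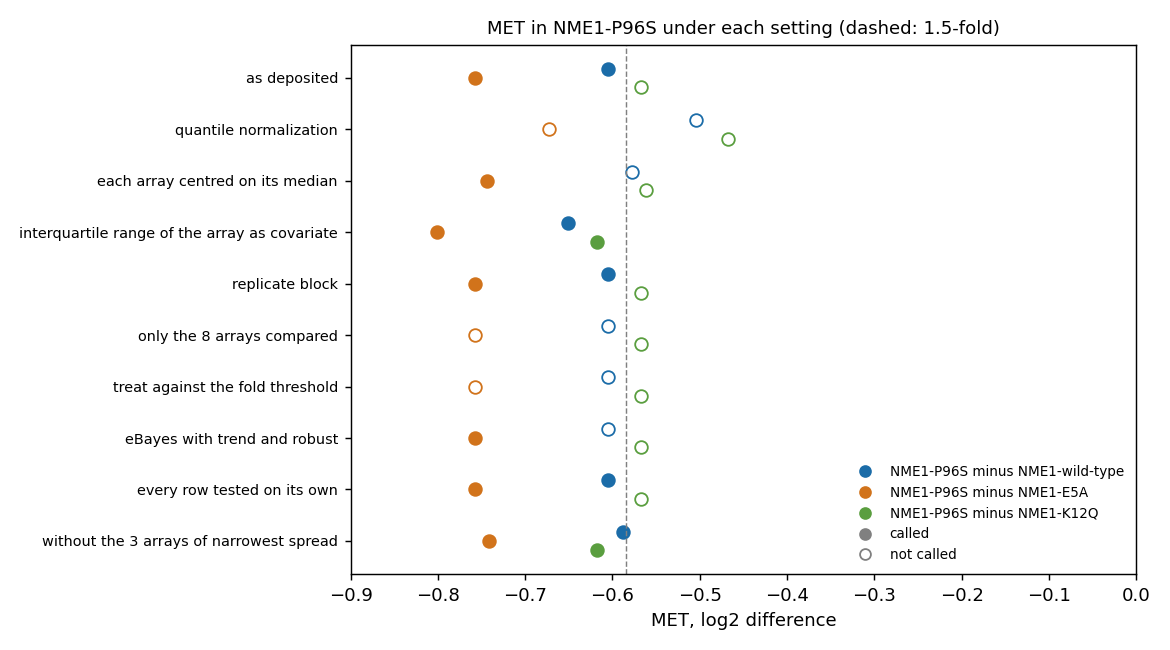
Difference of MET in NME1-P96S from each other NME1 line (x axis, log2) under each processing setting (y axis), with filled points where the gene was called and a dashed line at 1.5-fold. Every point lies below 0, between -0.80 and -0.47, and which points are called changes with the setting.

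Of the other components of the MET pathway, 0 of 19 measured genes were called in any line against Parent. The shares of all features called were 0.0326% in NME1-wild-type, 0.218% in NME1-E5A, 0.00544% in NME1-K12Q and 0.103% in NME1-P96S. At such shares a list of this size would mostly hold 0 called genes. The list held the ligand HGF, its activating proteases and inhibitors, and adaptors such as GAB1 and GRB2. HGF itself differed by 0.01 in NME1-wild-type, 0.20 in NME1-E5A, 0.11 in NME1-K12Q and -0.10 in NME1-P96S. Among the genes of this list with the highest means, the transcription factor gene STAT3 differed by -0.04 in NME1-wild-type and the plasminogen activator gene PLAT by -0.20. The list medians were -0.09 in NME1-wild-type, -0.07 in NME1-E5A, 0.01 in NME1-K12Q and -0.10 in NME1-P96S.

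LPAR1, the lysophosphatidic acid receptor (row 3220384), read 8.82, 8.73, 8.42 and 8.61 on the NME1-P96S arrays. It read 8.34, 8.31, 8.22 and 8.20 in NME1-wild-type, 8.07, 8.12, 8.30 and 8.06 in NME1-E5A, and 8.30, 8.02, 8.24 and 8.03 in NME1-K12Q. The Parent arrays read 8.46, 8.10, 8.44 and 8.29. The NME1-P96S arrays lay above all 12 arrays of the other NME1 lines, and 3 of the 4 lay above the highest Parent array.

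The NME1-P96S mean of 8.64 ± 0.175 (SD, n = 4) was higher than NME1-wild-type, at 8.27 ± 0.0687, by 0.37 on the log2 scale (limma adjusted p = 0.551). It exceeded NME1-E5A by 0.50 (adjusted p = 0.0918) and NME1-K12Q by 0.50 (adjusted p = 0.0861), or 1.42-fold and 1.41-fold. Against Parent, at 8.32 ± 0.166, the difference was 0.32 (interval 0.08 to 0.57, adjusted p = 0.850). LPAR1 was thus the 1 member whose NME1-P96S arrays lay wholly above, in each of the 3 comparisons with another NME1 line, as did 0.914%, 1.31% and 1.01% of all features against NME1-wild-type, NME1-E5A and NME1-K12Q. MET was the 1 member wholly below in the same 3 comparisons, beside 0.914%, 1.7% and 1.22% of features.

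The order of LPAR1 means was NME1-P96S, Parent, NME1-wild-type, NME1-K12Q and NME1-E5A, with no neighbours called. Within lines LPAR1 moved with the spread of the array (r = 0.53 over 20 arrays after each line's mean was taken off). With that spread as a covariate the LPAR1 difference of NME1-P96S from Parent was 0.26, not called. The F test over the 5 lines did not call LPAR1 (adjusted p = 0.226), and called it with quantile normalization (adjusted p = 0.0414), with array spread as a covariate (adjusted p = 0.0212) and without the 3 narrowest arrays (adjusted p = 0.0331). In all of those settings its differences stayed under 1.5-fold.

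**Figure D4:**
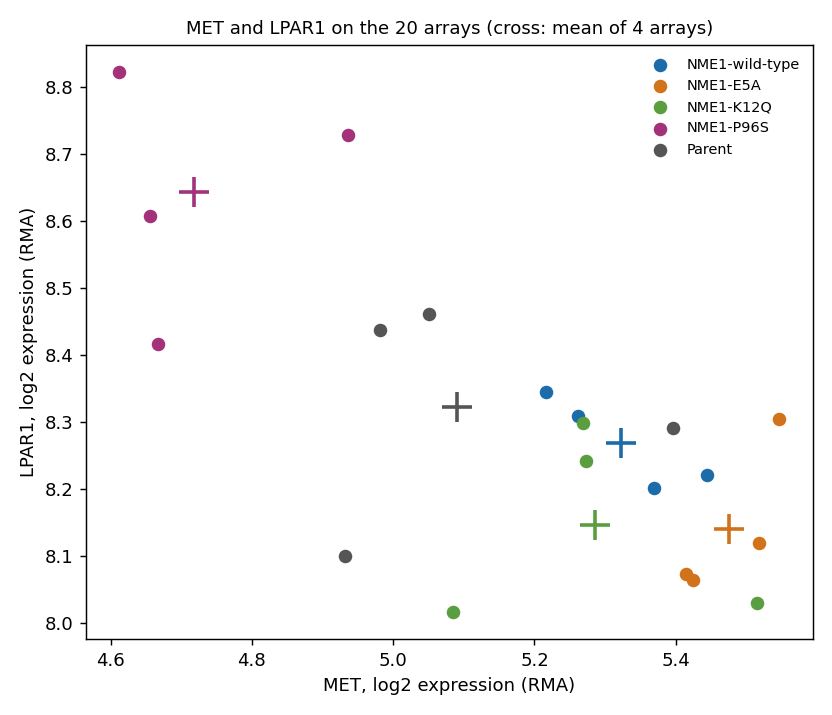
LPAR1 (y axis) against MET (x axis), both as log2 expression, on each of the 20 arrays, with a cross at the mean of each line. NME1-P96S stands at the upper left, with MET at 4.72 and LPAR1 at 8.64, and NME1-E5A at the lower right, at 5.48 and 8.14.

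The means of MET and LPAR1 lay in nearly opposite orders over the 5 lines. Within lines they did not move together, with r = 0.05 over the 20 arrays after each line's mean was taken off. Of the other genes of lysophosphatidic acid receptors and turnover, 0 of 12 measured were called in NME1-wild-type, NME1-K12Q or NME1-P96S, beside 0.00544% to 0.103% of all features. In NME1-E5A 1 was lower, where 0.0762% of all features were called lower. This was LIPH, a lipase that makes lysophosphatidic acid, at 3.96 ± 0.103 in NME1-E5A and 4.62 ± 0.0914 in Parent (SD, n = 4), a difference of -0.66 (limma adjusted p = 0.0160). The call was lost without Parent replicate 4, NME1-E5A replicate 2 or NME1-E5A replicate 3 (-0.66 to -0.62). It was also lost with quantile normalization and with arrays centred on their medians. LIPH averaged 4.36 over the 20 arrays, below the array medians of 6.27 to 6.50, and no detection call was used. The list medians were -0.12 in NME1-wild-type, -0.05 in NME1-E5A, -0.03 in NME1-K12Q and -0.08 in NME1-P96S, while PLPP2 and PLPP3, phosphatases that degrade the lipid, differed by 0.0015 and -0.13 with wild-type NME1.

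SMO, the hedgehog transducer (row 3023350), read 7.48, 7.54, 7.75 and 7.80 in NME1-wild-type, 7.76, 7.81, 7.74 and 7.83 in NME1-E5A, and 7.57, 7.79, 7.69 and 7.67 in NME1-K12Q. The NME1-P96S arrays read 7.28, 7.48, 7.90 and 7.70, and the Parent arrays 7.55, 7.78, 7.84 and 7.92. The 5 lines overlapped, and NME1-P96S had the widest spread (SD 0.268) and NME1-E5A the narrowest (SD 0.0407). The line means ran from 7.79 in NME1-E5A to 7.59 in NME1-P96S, with Parent (7.77), NME1-K12Q (7.68) and NME1-wild-type (7.64) between, and neither neighbours nor any other pair were called.

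The difference of SMO from Parent was -0.13 in NME1-wild-type (interval -0.40 to 0.14), 0.01 in NME1-E5A, -0.09 in NME1-K12Q and -0.18 in NME1-P96S (interval -0.45 to 0.08). Of 22 further hedgehog pathway genes measured, 0 were called in any line against Parent, beside 0.00544% to 0.218% of all features. PTCH1, the receptor that holds SMO inactive and itself a target of the pathway, differed by -0.17 in NME1-wild-type, -0.19 in NME1-E5A, -0.01 in NME1-K12Q and 0.18 in NME1-P96S. FOXM1, at the highest mean of the list, differed by 0.20 and the ciliary gene EVC by 0.01 in NME1-wild-type. Medians of the list were -0.11 in NME1-wild-type, -0.08 in NME1-E5A, -0.02 in NME1-K12Q and -0.16 in NME1-P96S, beside -0.03 to -0.06 for all features.

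PTN, the secreted growth factor (row 3074857), read 6.48, 6.47, 5.79 and 5.60 in NME1-wild-type, 6.39, 5.96, 5.74 and 5.72 in NME1-E5A, and 6.25, 5.92, 5.23 and 5.54 in NME1-K12Q. It read 6.12, 5.71, 5.64 and 5.38 in NME1-P96S and 5.74, 5.81, 5.97 and 5.90 in Parent. PTN had the widest spread of the 6 genes within the NME1 lines, with an SD of 0.457 in NME1-wild-type against 0.101 in Parent. Replicate 1 was the highest array in 4 of 4 NME1 lines and the lowest of the 4 in Parent. What sets the replicate numbers apart is not given in the labels, and its part in these values was not tested.

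Means of PTN ran from 6.08 in NME1-wild-type through 5.95 in NME1-E5A, 5.86 in Parent and 5.73 in NME1-K12Q to 5.71 in NME1-P96S, with no pair called. The difference of NME1-wild-type from Parent, 0.23, had an interval from -0.25 to 0.71 (limma adjusted p = 0.997), the widest of the 6 genes. In the pathway of PTN and its relative midkine 0 of 15 measured genes were called in any line against Parent. The shares of all features called were 0.00544% to 0.218%. Of its cell-surface partners, the syndecan gene SDC4 differed by -0.09 and SDC3 by -0.13 in NME1-wild-type. The catenin gene CTNNB1, named for its high mean in the list, differed by 0.17 in the same line. The list medians were -0.09 in NME1-wild-type, 0.14 in NME1-E5A, -0.04 in NME1-K12Q and 0.07 in NME1-P96S.

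L1CAM, the adhesion molecule (row 4026798), read 9.23, 9.44, 9.85 and 9.86 in NME1-wild-type, 9.56, 9.998, 9.94 and 10.01 in NME1-E5A, and 9.29, 9.80, 9.77 and 9.86 in NME1-K12Q. The NME1-P96S arrays read 9.58, 9.96, 9.72 and 9.94 and the Parent arrays 9.67, 9.34, 9.76 and 9.66. Replicate 1 was the lowest array of L1CAM in 4 of 4 NME1 lines, the same arrays on which PTN was highest. After each line's mean was taken off, L1CAM and PTN ran opposite to each other with r = -0.77 over the 20 arrays, the most negative of the 15 pairs of members, and LPAR1 and SMO with r = -0.71. These correlations describe arrays that were normalised together.

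Against Parent, L1CAM differed by -0.01 in NME1-wild-type (interval -0.36 to 0.33), 0.27 in NME1-E5A (interval -0.08 to 0.62), 0.07 in NME1-K12Q and 0.19 in NME1-P96S. The means ran from 9.88 in NME1-E5A through 9.80 in NME1-P96S, 9.68 in NME1-K12Q and 9.61 in Parent to 9.59 in NME1-wild-type, with no pair called. Among 20 measured relatives and partners of L1CAM, 0 were called in NME1-wild-type, NME1-K12Q or NME1-P96S, beside 0.00544% to 0.103% of all features. In NME1-E5A 1 was lower, where 0.0762% of all features were called lower. This was NRCAM, an adhesion molecule of the L1 family, at 3.97 ± 0.0855 in NME1-E5A and 4.70 ± 0.290 in Parent (SD, n = 4), a difference of -0.73 (limma adjusted p = 0.0195). The call was lost without Parent replicate 4 or any 1 of the 4 NME1-E5A arrays, at -0.76 to -0.59, and with quantile normalization or centring on array medians. NRCAM averaged 4.42 over the 20 arrays, also below the array medians. SDCBP (syntenin) differed by 0.08 in NME1-wild-type, and the list medians were 0.03 in NME1-wild-type, 0.07 in NME1-E5A, 0.00069 in NME1-K12Q and -0.03 in NME1-P96S.

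CCN2, whose promoter with 3 TEAD cores is printed above (row 2974330), read 10.72, 10.86, 10.83 and 10.88 in NME1-wild-type, 10.65, 10.50, 10.36 and 10.30 in NME1-E5A, and 10.44, 10.48, 10.23 and 10.74 in NME1-K12Q. It read 10.88, 10.96, 10.51 and 10.71 in NME1-P96S and 10.77, 10.07, 10.81 and 10.74 in Parent. The low Parent value belongs to replicate 2, the array of narrowest spread, and CCN2 moved with array spread within lines (r = 0.71 over 20 arrays). With array spread as a covariate the differences of CCN2 were 0.17 for NME1-wild-type from Parent and -0.37 for NME1-E5A from NME1-wild-type, neither called.

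The NME1-wild-type mean of CCN2 was 10.82 ± 0.0736 (SD, n = 4), against 10.60 ± 0.355 in Parent, a difference of 0.23 (interval -0.10 to 0.55, limma adjusted p = 0.997) that was 0.049 without Parent replicate 2. Set against NME1-wild-type, the difference of CCN2 was -0.37 in NME1-E5A (limma unadjusted p = 0.0292, adjusted p = 1.00), -0.35 in NME1-K12Q (limma unadjusted p = 0.0367) and -0.06 in NME1-P96S. All 4 NME1-E5A arrays lay below the 4 NME1-wild-type arrays, which was true of 1.48% of all features in that direction and of 1 member, CCN2. By the fit 0 of 6 members were called in NME1-E5A or NME1-K12Q against NME1-wild-type (limma), beside 0.207% and 0.0381% of features, and 0 between NME1-K12Q and NME1-E5A, beside 0.169%. At an unadjusted p under 0.05 CCN2 was the 1 member in NME1-E5A and the 1 in NME1-K12Q against NME1-wild-type, beside 2.4% and 1.29% of features. CCN2 means ran from NME1-wild-type through NME1-P96S (10.76), Parent and NME1-K12Q (10.47) to NME1-E5A (10.45), with no neighbours called.

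Of the 5 other CCN genes 0 were called in any line against Parent. The shares of all features called were 0.00544% to 0.218%, here and for the YAP and TEAD list below. CCN1, also a target of YAP and TEAD factors, differed by 0.35 in NME1-wild-type, -0.25 in NME1-E5A, 0.07 in NME1-K12Q and 0.13 in NME1-P96S, and CCN3 by -0.24 in NME1-wild-type. Among 17 measured YAP and TEAD factors and targets, CCN1 included, 0 were called in any line, at medians of 0.05 in NME1-wild-type, -0.04 in NME1-E5A, 0.07 in NME1-K12Q and 0.02 in NME1-P96S. THBS1, the matrix protein thrombospondin, differed by 0.05 and the coactivator gene WWTR1 by 0.09 in NME1-wild-type.

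**Figure D5:**
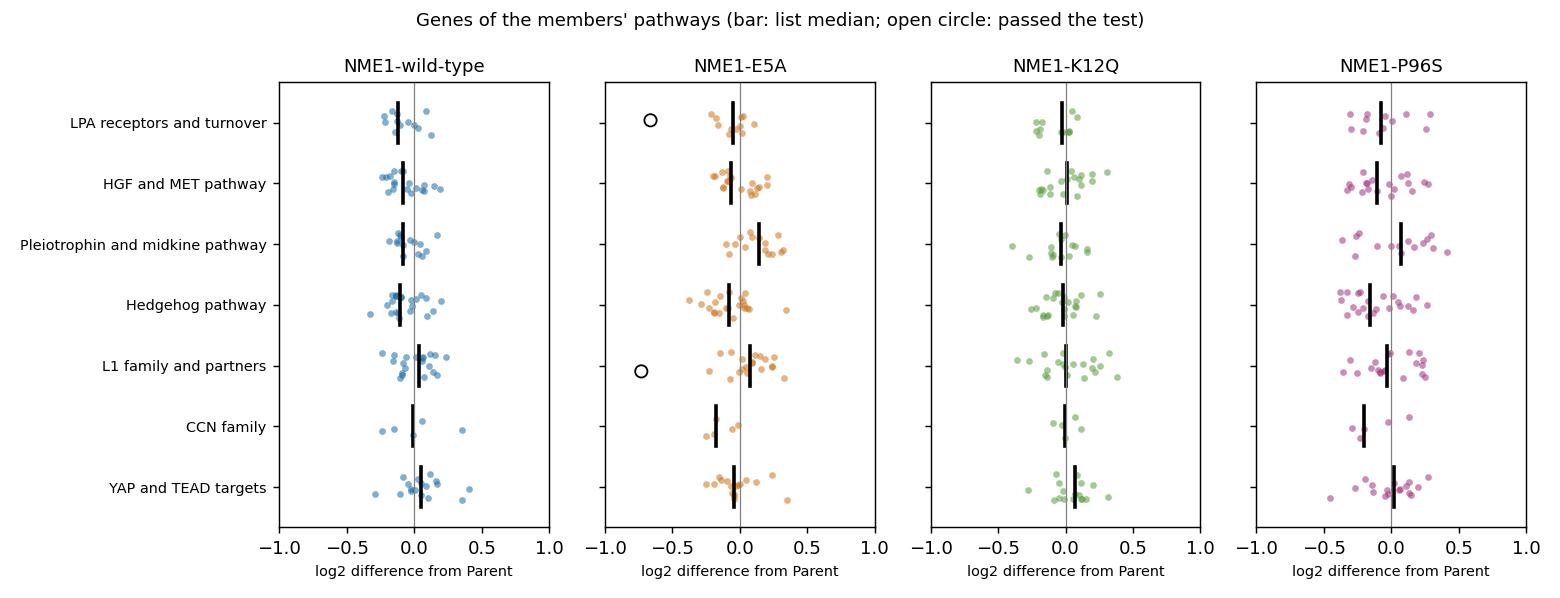
Difference from Parent on the log2 scale (x axis) of the measured genes of 7 lists around the 6 members (y axis), with a panel for each NME1 line, a bar at each list's median and open circles for called genes. The 2 circles, both lower in NME1-E5A, are LIPH and NRCAM, and the list medians lie between -0.20 and 0.14.

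Over the 7 lists together, 108 of 120 genes were measured by rows of their own, and the number called was 0 in NME1-wild-type, 2 in NME1-E5A, 0 in NME1-K12Q and 0 in NME1-P96S, both of the 2 lower, where 0.0762% of all features were called lower. A further 3 genes, NETO2, MMP2 and FZD1, were reported lower with NME1 in the same breast cancer cell work. NETO2, an accessory subunit of kainate receptors, was the 1 of these 3 that was called, with a log2 difference from Parent of 1.11 in NME1-wild-type and -1.11 in NME1-E5A (limma adjusted p = 9.43e-05 and 6.80e-05). In these comparisons 0.0326% and 0.218% of all features were called. The NETO2 difference in NME1-wild-type was a rise, opposite to the reported direction. MMP2, a gelatinase, differed by -0.09 and the Wnt receptor gene FZD1 by -0.06 in NME1-wild-type. MET, SMO and PTN lie on the same chromosome, 7, and of these only MET was called in any pair of lines.

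The genes whose values most resembled each member over the 20 arrays were found by Pearson correlation, as a description of arrays that share line and processing. For MET they were AOX1, an aldehyde oxidase gene (r = 0.87), and ANKH (r = 0.83), both with their lowest line mean in NME1-P96S. For LPAR1 they were the transcription factor gene SOX6 (r = 0.87) and the desaturase gene FADS2 (r = 0.85), both with their highest mean in NME1-P96S and their lowest in NME1-K12Q. PTN was most like ZMAT2 (r = 0.90) and the annexin gene ANXA4 (r = 0.89), and SMO was most like IMPDH1 (r = 0.91) and SLC52A2 (r = 0.90). L1CAM resembled ABR (r = 0.94) and the protease gene ADAM12 (r = 0.93), and CCN2 resembled CARMIL1 (r = 0.86) and TUFT1 (r = 0.84).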

How the data were processed

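Total RNA of 5 lines was measured on 20 Affymetrix Exon 1.0 ST arrays. The authors deposited log2 expression values normalised with RMA, per the design text. The submitters' processing notes also name limma. Versions, genome build and annotation release are not given in the sources used here. Line and replicate number came from the titles.

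The table held 18708 rows, of which 14735 had a single gene symbol. The row with the highest mean stood for a gene with several rows, which left 18384 features. Symbols were checked by gene ID against RefSeq (GRCh38.p14), which changed 0. A limma model (version 3.58.1, R 4.3.3) took the line as its factor over the 20 arrays, with 15 residual degrees of freedom, eBayes, two-sided contrasts and Benjamini-Hochberg adjustment over all features, and was tested on simulated data. Intervals are 95% and not adjusted. Arrays have no read depth, so their number limits the precision.

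Same-numbered arrays deviated together in all 4 pairs (r over 0.1) in 2 of the 10 comparisons (NME1-wild-type with Parent and NME1-K12Q with NME1-wild-type), so the replicate number was a block in an alternative fit alone. Over all lines, 25 of 40 same-numbered pairs were over 0.1 (median r = 0.24), against 38 of 120 pairs of other numbers (median r = -0.054). Other alternatives changed normalization, centring, covariates, filter, fold test, moderation and arrays. Genes outside the 6 were named by rule: called list genes, the 2 uncalled list genes with the highest mean, the 2 most correlated genes per member, and NETO2, MMP2 and FZD1. HGF, SDC3 and PTCH1 were named for their role, after their values were seen, and 4 markers as the ends of their lists. The members and lists were chosen with earlier results of these data known. Results for 1 further gene list are not reported here.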

Additional observations from a re-analysis of the deposited data

Results flagged for a closer look

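Of 30 groups of 4 arrays (6 genes in 5 lines), 3 held an array whose gap to its nearest neighbour exceeded the 95% critical value of Dixon's test, where chance gives about 1 in 20. CCN2 read 10.07 on Parent replicate 2, against 10.74 to 10.81 on the other Parent arrays. MET read 4.94 on NME1-P96S replicate 2, against 4.61 to 4.67 on the others. L1CAM read 9.56 on NME1-E5A replicate 1, against 9.94 to 10.01 on the others.

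The departure of MET from Parent was of opposite sign in NME1-P96S and in the other NME1 lines, and the difference itself was called between NME1-P96S and NME1-wild-type (-0.61) and between NME1-P96S and NME1-E5A (-0.76).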

How the results depend on the processing

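Over 10 alternative settings, 448 of 463 values of single genes and 149 of 179 counts kept their direction and their side of the threshold. Without 1 array in turn 920 of 960 and 455 of 500 did. These shares are a weak measure of stability. The replicate block, fits of only 8 arrays, the row filter and treat cannot change a log2 difference. Nor can trend and robust moderation, testing every row on its own, or leaving out an array of a line not compared. Of the 48 gene results only MET in NME1-P96S against NME1-wild-type and NME1-E5A was called as deposited, so most only stayed uncalled. The MET call against NME1-wild-type was lost without any 1 of 15 arrays. With quantile normalization MET in NME1-P96S was no longer called against NME1-wild-type (-0.50, limma adjusted p = 1.00) or NME1-E5A (-0.67), so 0 and 0 members were called there and 0 list genes in NME1-E5A. In the same setting SMO in NME1-E5A minus Parent became -0.0063, the members wholly apart numbered 0 for NME1-E5A and 1 for NME1-P96S against Parent, and 1 for NME1-P96S against NME1-wild-type and 1 against NME1-K12Q. They numbered 3 for NME1-P96S against NME1-E5A. The F test then called LPAR1 in place of MET. With each array centred on its median, L1CAM in NME1-wild-type minus Parent became 0.0073, MET in NME1-P96S against NME1-wild-type was not called (-0.58, adjusted p = 0.184), and there were 0 members by the F test, 0 list genes in NME1-E5A and 0 members wholly apart in NME1-E5A against Parent. With array spread as a covariate 1 member was called between NME1-P96S and NME1-K12Q (MET, -0.62) and 2 by the F test (MET and LPAR1). Fitting only the 8 arrays compared, or testing against the fold itself (treat), gave 0 called members in both MET comparisons and 0 list genes. Keeping rows at or above the median level left out MET and PTN, LIPH and NRCAM, so by construction these genes could not be called. Among the genes kept, the counts were 0 for the same comparisons and 0 for the F test. The 4 members kept were tested, and LPAR1 had an adjusted p of 0.122 by the F test (limma). Trend and robust moderation gave 0 against NME1-wild-type (adjusted p = 0.107). The cause of the other changes was not tested.

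A setting chosen after seeing the data, without the 3 arrays of narrowest spread, turned L1CAM in NME1-K12Q minus Parent to -0.056, MET in NME1-K12Q minus NME1-wild-type to 0.029 and CCN2 in NME1-P96S minus NME1-wild-type to 0.025. It called MET between NME1-P96S and NME1-K12Q (-0.62, count 1) and 2 members by the F test. Members wholly apart then numbered 2 for NME1-E5A and 2 for NME1-P96S against Parent, 1 between NME1-K12Q and NME1-E5A and 4 between NME1-P96S and NME1-E5A. The replicate number as a block changed no call or count, and MET in NME1-P96S had a limma adjusted p of 0.0396 against NME1-wild-type and 0.00553 against NME1-E5A.

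Without 1 array in turn, values whose sign turned ranged from -0.10 to 0.11 for L1CAM in NME1-wild-type minus Parent, -0.051 to 0.17 for PTN and -0.059 to 0.064 for SMO in NME1-E5A minus Parent, -0.29 to 0.048 for PTN and -0.016 to 0.20 for L1CAM in NME1-K12Q minus Parent, and -0.011 to 0.25 for CCN2 in NME1-P96S minus Parent. In NME1-K12Q minus NME1-wild-type they were -0.11 to 0.029 for MET, -0.014 to 0.092 for SMO and -0.036 to 0.22 for L1CAM. In NME1-P96S minus NME1-wild-type they were -0.15 to 0.052 for SMO and -0.12 to 0.025 for CCN2, and in NME1-K12Q minus NME1-E5A -0.044 to 0.061 for LPAR1. Counts of called members ranged from 0 to 1 for NME1-P96S against NME1-wild-type and NME1-K12Q and for the F test, and list genes in NME1-E5A from 0 to 2. Members wholly apart ranged from 0 to 1 for NME1-wild-type, NME1-K12Q and NME1-P96S against Parent, NME1-K12Q against NME1-wild-type and NME1-K12Q against NME1-E5A, from 1 to 2 for NME1-E5A against Parent and against NME1-wild-type, and from 2 to 4 for NME1-P96S against NME1-E5A. For NME1-P96S against NME1-K12Q they ranged from 2 to 3. With 1 array fewer, arrays lie wholly apart more easily, and the share of all features was not counted there. Signal over background was not available, which limits what can be said of low rows.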
